A study of Mus musculus with 6 samples.

Results

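The genes described here encode 46 proteins of families that place or remove methyl groups, or place acetyl groups, on histone lysines. These genes were measured in whole lungs of wild-type mouse embryos and of embryos labelled as Mll3 knockout. They are the protein-coding genes of the deposited normalized table, which lists 24521 genes, whose symbols begin with Kmt, Kdm, Setd, Nsd, Ezh, Ehmt, Suv39h or Kat followed by a digit. The pattern found 51 such genes, and Kmt2c (which encodes MLL3), Kmt2d, Kdm6a, Kdm5c and Kdm5d were left out by the rule. The rule reads the symbol and the biotype only. Whole lung lobes were taken at E18.5, shortly before birth, without aeration, from 3 wild-type samples and 3 samples of the genotype given as Mll3FDC/FDC (Mll3 KO). Both groups share the stage and tissue, and the labels do not say how the FDC allele was made, which cells it affects, or whether samples shared a litter. The labels call the samples triplicates without saying that each came from a separate embryo, so the p-values reflect no more than how far these 6 libraries differ, which may be technical.

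Histone lysines carry methyl groups that are set by SET domain methyltransferases, each with a preferred residue, and removed by the LSD amine oxidases or by JmjC domain oxygenases. Methylation of H3K4 marks promoters and enhancers, H3K36 methylation follows transcribed gene bodies, and H3K27, H3K9 and H4K20 methylation accompany Polycomb-repressed genes and heterochromatin. Acetyltransferases of the GNAT and MYST families acetylate histone tails at active genes. MLL3 and its paralogue MLL4 place monomethylation of H3K4 at enhancers, so the comparison asks whether the genes of the other enzymes that act on histone lysines are expressed at another level in Mll3 knockout lung. Values are read counts per gene, given as CPM (the read count scaled to library size, with library sizes adjusted by the TMM method). Where levels of different genes are compared, CPM per kb of exonic length is given. This length covers the annotated exons of a gene. The transcripts expressed in these lungs may be shorter, so comparisons of levels between genes are approximate.

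None of the 45 enzyme genes that could be tested passed the genotype test, which does not show that none changed. edgeR's quasi-likelihood test at an adjusted p under 0.05 called 0 of the 45 members that had enough reads, while it called 0.368% of the 19042 genes tested (0.063% higher and 0.305% lower in knockout). DESeq2, limma voom and a fit with a term for the number prefix of the sample titles, whose meaning the labels do not state, also called 0 members, with 1.87%, 0.352% and 3.28% of all genes called. At an unadjusted p under 0.05 stood 2 members, Nsd2 and Kdm1a, beside 10.7% of all genes. The lowest adjusted p of a member was 0.294. The member log2 fold changes ran from −0.15 for Setd7 to 0.38 for Suv39h2, with a median of 0.047, beside 0.010 over all genes tested. The estimate was above 0 for 33 members and below 0 for 12 with TMM scaling, for 31 and 14 with size factors of the DESeq2 kind, and for 41 and 4 with scaling by library size only, so the split depends on the scaling. The estimate was above 0 for 52.6% of all genes with TMM scaling. With size factors of the DESeq2 kind, the median log2 fold change was 0.042 for members and 0.0051 for all genes. With library size only it was 0.080 for members and 0.044 for all genes. The all-gene median thus moved with the scaling too, and the member median lay above it under each scaling.

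The precision of the comparison was high for most members. The median SE of the log2 fold change was 0.073 for members and 0.121 for all genes tested. The 95% interval lay inside a 1.5-fold change in either direction for 44 of the 45 members, beside 64.4% of all genes. It lay inside 1.2-fold for 25 members, beside 24.7% of all genes. Suv39h2 was the exception at 1.5-fold, with an interval that reached up to 1.78-fold. Members were read deeply, between 3.88 and 400.4 CPM in any library for the 45, and the smallest member total over the 6 libraries was 642 reads. Kdm4d, a JmjC demethylase known for its expression in testis, was the member not tested, with 1, 2 and 1 reads in wild type and 1, 1 and 7 reads in knockout.

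**Figure D1:**
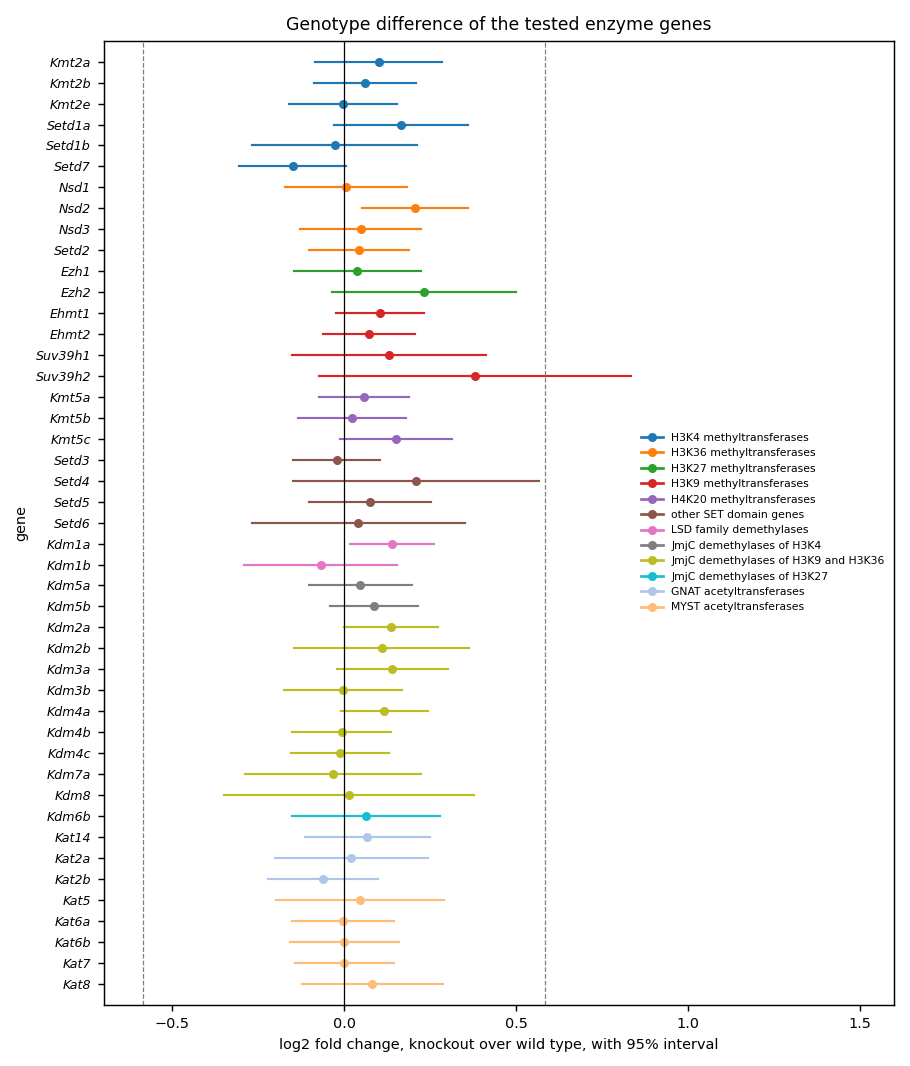
Log2 fold change of knockout over wild type (x axis) for the 45 tested genes (y axis), coloured by role, with points for edgeR estimates, bars for 95% intervals and dashed lines at 1.5-fold. Every interval except that of Suv39h2 lies between the dashed lines, and only those of Nsd2 and Kdm1a lie wholly on one side of 0.

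Facts of the libraries that touch these results are few. Library totals ran from 20158689 to 23305306 reads. Kmt2c itself measured 162, 179 and 162 CPM in wild type 1 to 3 and 143, 171 and 159 CPM in knockout 1 to 3 (log2 fold change −0.090, SE 0.078, adjusted p = 0.737). Gene-level reads thus did not separate the genotypes. Without knowing where the FDC allele differs from wild type, these reads cannot check the knockout. Below, knockout stands for the label. Kmt2d, which encodes MLL4, measured 246, 294 and 248 in wild type and 225, 300.1 and 286 CPM in knockout. The 9 lung epithelial markers summed to between 15549 and 18591 CPM in every library. The summed level of the 6 skeletal muscle markers was 535 in wild type 1 and 534 in knockout 2 but 14.4 to 21.6 CPM in the other libraries, and that of the 6 liver markers was 60.2 CPM in knockout 2 and 7.45 to 23.0 CPM in the others. No gene of the 11 marker lists, which also cover blood, vessel, heart, thymus and mesenchyme, passed the genotype test. Knockout 3 held 59951 reads of Xist, and the other 5 libraries held 6 to 27. Xist reads were thus not balanced between the genotypes. In whole lung, fewer cells of a type and less RNA per cell cannot be told apart.

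The sequence before the RefSeq start is shown for 4 genes chosen by their values in knockout 1. That library stood above the others for the H3K27 enzyme Ezh2 and the H3K9 enzymes Suv39h1 and Suv39h2. It stood below the others for the Ezh2 paralogue Ezh1. Each sequence is the 250 bases before the RefSeq start in GRCm38.p6, on the minus strand, written 5′ to 3′. Capitals mark CCAAT on either strand (ATTGG when read on this one), the pentamer bound by the factor NF-Y, which is found in many promoters of cell cycle genes. The windows are chr6:47595031-47595280 for Ezh2, chr11:101226464-101226713 for Ezh1, chrX:8074761-8075010 for Suv39h1 (the 5′-most of 2 starts) and chr2:3474987-3475236 for Suv39h2. The counted Ezh2 gene reaches to base 47595341, so its whole window lies inside the gene. The counted Suv39h2 gene reaches to base 3475031, so part of its window lies inside the gene.
Ezh2: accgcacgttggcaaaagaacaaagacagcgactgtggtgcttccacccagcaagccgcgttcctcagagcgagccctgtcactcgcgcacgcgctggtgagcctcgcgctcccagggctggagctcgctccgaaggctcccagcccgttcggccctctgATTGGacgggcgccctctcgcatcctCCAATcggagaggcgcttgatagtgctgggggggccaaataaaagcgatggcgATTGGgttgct
Ezh1: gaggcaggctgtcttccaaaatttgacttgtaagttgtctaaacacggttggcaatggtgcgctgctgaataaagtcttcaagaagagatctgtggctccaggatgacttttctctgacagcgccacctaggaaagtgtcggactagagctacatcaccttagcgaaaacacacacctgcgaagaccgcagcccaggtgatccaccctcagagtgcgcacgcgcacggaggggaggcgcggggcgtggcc
Suv39h1: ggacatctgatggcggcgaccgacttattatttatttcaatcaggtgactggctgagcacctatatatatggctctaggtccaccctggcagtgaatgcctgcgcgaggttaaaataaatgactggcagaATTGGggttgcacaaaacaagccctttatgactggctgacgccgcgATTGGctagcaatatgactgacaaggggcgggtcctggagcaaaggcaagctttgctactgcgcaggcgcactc
Suv39h2: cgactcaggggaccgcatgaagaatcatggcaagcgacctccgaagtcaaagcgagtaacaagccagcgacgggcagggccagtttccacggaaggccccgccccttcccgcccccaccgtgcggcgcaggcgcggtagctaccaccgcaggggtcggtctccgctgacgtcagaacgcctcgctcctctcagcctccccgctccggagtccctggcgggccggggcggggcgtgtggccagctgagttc
The Ezh2 window held 3 matches, whose first bases lie at −90, −64 and −11 relative to the RefSeq start. The Suv39h1 window held 2, at −120 and −74. The Ezh1 and Suv39h2 windows held 0. CCAAT occurred in 33.8% of all 32851 RefSeq promoter windows of this length, and 3 or more matches in 2.79%. Of the 46 members, 34 had a promoter in the table, 50 windows in all, and 21 of these 50 (42.0%) held CCAAT. The E2F-type motif TTTNNCGC, searched on both strands, was in 0 of the 4 windows, in 3 of the 50 member windows and in 4.28% of all windows. The member windows had a median GC content of 61.8% and a median of 20 CpG dinucleotides, beside 52.4% and 6 over all windows. A match is a description of these letters and says nothing of binding.

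The H3K27 methyltransferases Ezh1 and Ezh2 are the alternative catalytic subunits of Polycomb repressive complex 2, with Ezh2 known as the form of dividing cells. Ezh2 (ENSMUSG00000029687, chr6:47530139-47595341, mm10) measured 53.6, 61.4 and 53.9 CPM in wild type 1 to 3 and 78.8, 57.1 and 62.4 CPM in knockout 1 to 3 (log2 fold change 0.23, SE 0.12, adjusted p = 0.528, 95% interval −0.035 to 0.50). Knockout 1 stood well above every other library, and the remaining knockout libraries lay within the wild-type range or just above it, so the groups overlapped. Leaving out knockout 1 brought the log2 fold change of Ezh2 to 0.083. Ezh1 (ENSMUSG00000006920, chr11:101191115-101226463) measured 63.6, 65.2 and 64.7 CPM in wild type 1 to 3 and 58.5, 67.4 and 72.8 CPM in knockout 1 to 3 (log2 fold change 0.038, SE 0.083, adjusted p = 0.920), with the wild-type libraries close together and knockout 1 the lowest of the 6. Per length, the ratio of Ezh2 to Ezh1 was 0.939, 1.05 and 0.929 in wild type and 1.502, 0.945 and 0.955 in knockout. By this measure, which rests on the annotated exonic lengths, the paralogues stood near parity in 5 libraries, and knockout 1 was the exception. In wild type, Ezh1 stood at 8.67 ± 0.11 CPM per kb and Ezh2 at 8.43 ± 0.66 CPM per kb (SD, n = 3), a difference within the spread between libraries.

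The H3K9 methyltransferases comprise Ehmt1 and Ehmt2 (GLP and G9a), which work as a heterodimer in euchromatin, and Suv39h1 and Suv39h2, which trimethylate H3K9 in pericentric heterochromatin. Suv39h1 (ENSMUSG00000039231, chrX:8061171-8074760) measured 31.5, 33.5 and 32.3 CPM in wild type 1 to 3 and 43.4, 32.1 and 30.8 CPM in knockout 1 to 3 (log2 fold change 0.13, SE 0.13, adjusted p = 0.768). Knockout 1 was high and the other 5 libraries lay close together, and without knockout 1 the log2 fold change was −0.048. The gene is X-linked, and knockout 3, the library rich in Xist reads, held the lowest of its values by a small margin (30.8 beside 31.5 CPM in wild type 1). Suv39h2 (ENSMUSG00000026646, chr2:3455815-3475031) was the least expressed tested member and measured 3.88, 4.57 and 4.14 CPM in wild type 1 to 3 and 6.99, 5.19 and 4.20 CPM in knockout 1 to 3 (log2 fold change 0.38, SE 0.20, adjusted p = 0.548, 95% interval −0.072 to 0.83). Its knockout libraries spread from within the wild-type range to well above it, with knockout 1 the highest, and without that library the log2 fold change was 0.15. Ehmt1 measured 91.1, 95.4 and 93.0 CPM in wild type 1 to 3 and 96.9, 99.4 and 104 CPM in knockout 1 to 3 (log2 fold change 0.10, SE 0.058, adjusted p = 0.569), and here all knockout libraries lay above all wild-type ones by a small margin. Ehmt2 measured 143, 143 and 139 CPM in wild type 1 to 3 and 156, 149 and 141 CPM in knockout 1 to 3 (log2 fold change 0.072, SE 0.060, adjusted p = 0.721), with knockout 3 inside the wild-type range. Per length, Suv39h1 exceeded Suv39h2 in every library, with ratios of 6.78, 6.13 and 6.53 in wild type and 5.201, 5.18 and 6.15 in knockout. Ehmt2 exceeded Ehmt1 in every library as well, with ratios of 2.32, 2.21 and 2.20 in wild type and 2.38, 2.21 and 2.01 in knockout.

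**Figure D2:**
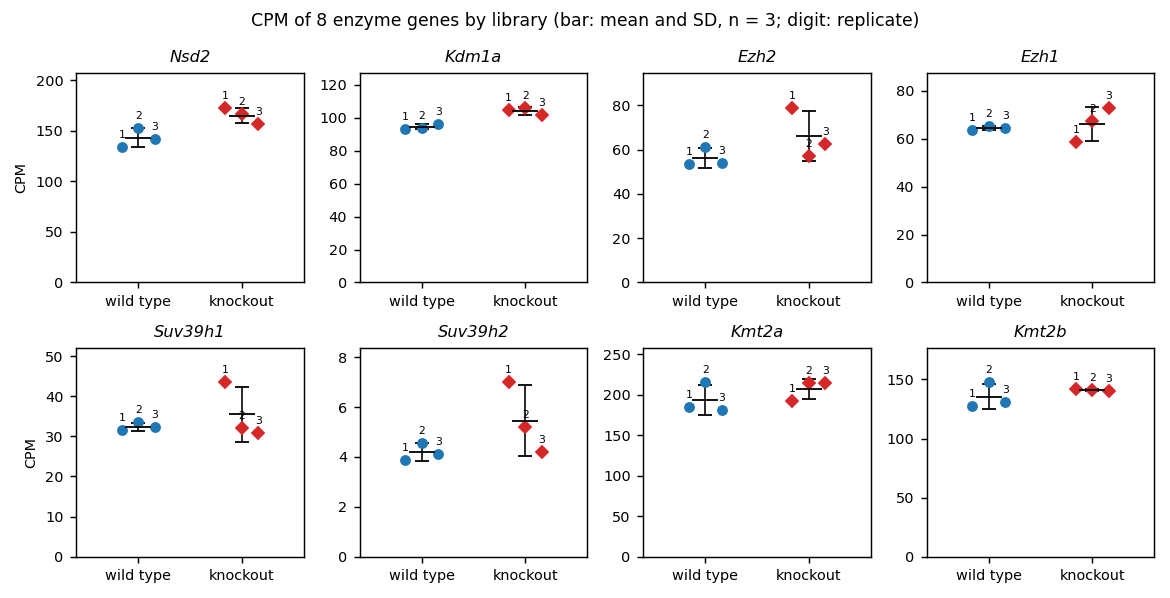
CPM (y axis, from 0) of 8 genes in wild-type (circles) and knockout (diamonds) libraries, with replicate numbers, means and SDs (n = 3). Knockout 1 stands above the other libraries for Ezh2 (78.8 CPM), Suv39h1 (43.4 CPM) and Suv39h2 (6.99 CPM). It is also the highest for Nsd2 (172 CPM, beside 166 CPM in knockout 2) but not for Ezh1, Kdm1a, Kmt2a or Kmt2b.

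Knockout 1 also held the highest levels of markers of dividing cells. The 16 cycling markers, a list chosen with earlier results of these data known, include Mki67, Top2a and Mcm2. They summed to 929, 1088 and 991 CPM in wild type 1 to 3. In knockout 1 to 3 the sums were 1571, 1122 and 1046 CPM. All 16 were highest in knockout 1 under each of the 3 scalings tried, beside 26.5% of all genes with TMM scaling. Of the 16 markers, 0 passed the genotype test, with a median log2 fold change of 0.33. Among the members, 6 stood at least 1.1 times above the other 5 libraries in knockout 1 (Suv39h2, Suv39h1, Ezh2, Kdm2b, Kat5 and Kdm8), beside 10.3% of all genes tested. Kdm7a and Setd7 stood at least 1.1 times below the others there with TMM scaling, 1 gene did so with size factors of the DESeq2 kind and 0 did with library size only, beside 12.5% of all genes with TMM scaling. The part of dividing cells in the values of knockout 1 was not tested.

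**Figure D3:**
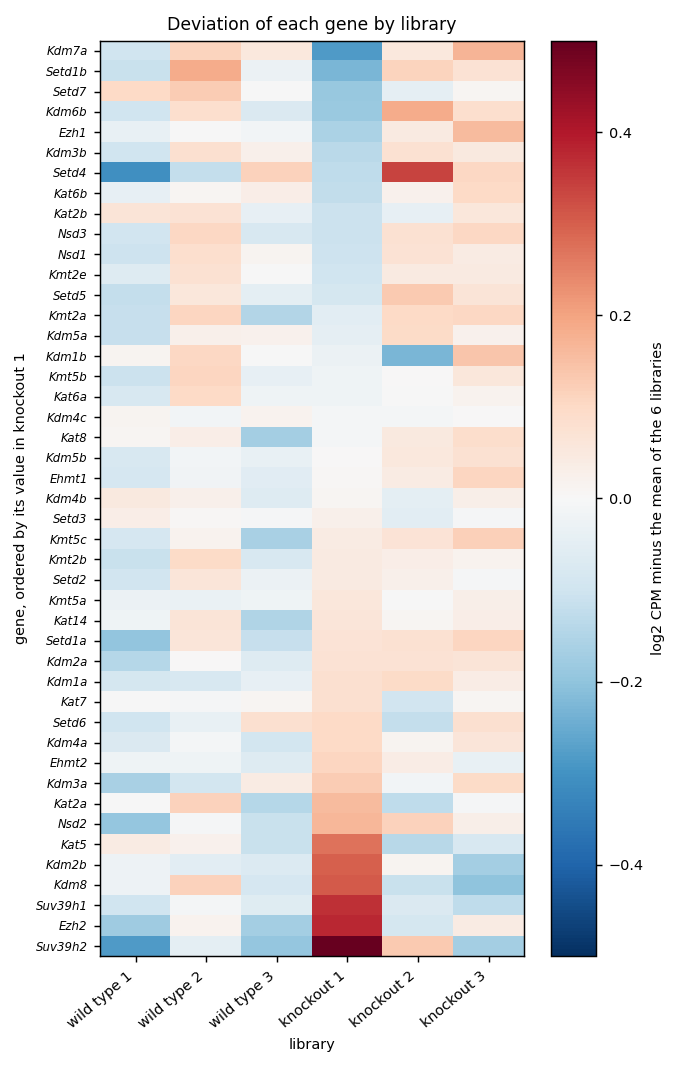
Log2 CPM of each tested gene (rows, ordered by knockout 1) minus its mean over the 6 libraries (columns), on a colour scale from −0.5 to 0.5 (Suv39h2 in knockout 1, at 0.56, is drawn at its end). The deepest reds are Suv39h2, Ezh2 and Suv39h1 in knockout 1, the deepest blue is Setd4 in wild type 1 (−0.31), and the wild type 1 column is mostly blue.

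Among the 6 genes grouped as H3K4 methyltransferases, log2 fold changes ran from −0.15 (Setd7) to 0.16 (Setd1a). Over Kmt2a, Kmt2b, Setd1a and Setd1b alone they ran from −0.028 to 0.16. Kmt2a (ENSMUSG00000002028, chr9:44803355-44881296), whose product MLL1 maintains Hox gene expression, measured 184, 215 and 181 CPM in wild type 1 to 3 and 193, 214 and 215 CPM in knockout 1 to 3 (log2 fold change 0.10, SE 0.083, adjusted p = 0.721). Its groups overlapped, with wild type 2 as high as knockout 2 and 3. Kmt2b (ENSMUSG00000006307, chr7:30568858-30588726), the MLL1 paralogue, measured 128, 147 and 131 CPM in wild type 1 to 3 and 142, 141 and 139.8 CPM in knockout 1 to 3 (log2 fold change 0.060, SE 0.067, adjusted p = 0.802), and the knockout values lay inside the wild-type range. Setd1a, a catalytic subunit of the complex that trimethylates H3K4 at promoters, measured 25.6, 30.7 and 27.1 CPM in wild type 1 to 3 and 30.8, 31.0 and 31.6 CPM in knockout 1 to 3 (log2 fold change 0.16, SE 0.088, adjusted p = 0.549). Each knockout value of Setd1a lay above each wild-type value, the nearest by a margin of under 1 CPM. The summed level of Kmt2a, Kmt2b, Setd1a and Setd1b was 414, 488 and 419.9 CPM in wild type 1 to 3 and 437, 476 and 474 CPM in knockout 1 to 3, with wild type 2 the highest of the 6. Kmt2e, which carries the MLL5 name and a SET domain held to be inactive, measured 222, 244 and 231 CPM in wild type 1 to 3 and 216, 239 and 239 CPM in knockout 1 to 3 (log2 fold change −0.0046, SE 0.071, adjusted p = 0.993), with knockout 1 the lowest of the 6 and the other knockout libraries inside the wild-type range. Setd7, a monomethyltransferase of H3K4 and of non-histone proteins, had the lowest log2 fold change of all members and measured 95.6, 97.3 and 89.1 CPM in wild type 1 to 3 and 78.1, 86.3 and 89.8 CPM in knockout 1 to 3 (log2 fold change −0.15, SE 0.070, adjusted p = 0.489). Its knockout 3 value lay just inside the wild-type range. Setd1b, the Setd1a paralogue, had a log2 fold change of −0.028. The per-length ratio of Kmt2a to Kmt2b was 0.831, 0.840 and 0.796 in wild type and 0.780, 0.873 and 0.884 in knockout, below parity in all 6 libraries.

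The H3K36 methyltransferases are Setd2, known for trimethylation, and Nsd1, Nsd2 and Nsd3, which place mono- and dimethylation. Nsd2 (ENSMUSG00000057406, chr5:33820725-33897975) had the lowest p of all members and measured 134, 153 and 142 CPM in wild type 1 to 3 and 172, 166 and 157 CPM in knockout 1 to 3 (log2 fold change 0.20, SE 0.069, adjusted p = 0.294, 95% interval 0.052 to 0.36). All knockout libraries lay above all wild-type libraries, and the call did not pass the adjustment over all genes. The log2 difference within the first title prefix was 0.27 and within the second 0.18, where the first holds 2 wild-type libraries and 1 knockout library and the second the reverse. Per length, the ratio of Nsd2 to Nsd1 was 0.398, 0.398 and 0.388 in wild type and 0.511, 0.436 and 0.420 in knockout, higher in each knockout library than in any wild-type one, and highest in knockout 1. Nsd3 measured 131, 150.0 and 132 CPM in wild type 1 to 3 and 129, 147 and 149.8 CPM in knockout 1 to 3 (log2 fold change 0.047, SE 0.079, adjusted p = 0.881), with knockout 1 below all of the wild-type values and the other knockout libraries near the top of their range. Setd2 measured 204, 227 and 213 CPM in wild type 1 to 3 and 224, 221 and 217 CPM in knockout 1 to 3 (log2 fold change 0.042, SE 0.065, adjusted p = 0.870), and every knockout value lay within the wild-type range. Nsd1 had a log2 fold change of 0.0041.

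The H4K20 methyltransferases are Kmt5a, which monomethylates H4K20 in dividing cells, and Kmt5b and Kmt5c, which add further methyl groups. Kmt5a measured 67.0, 66.8 and 67.3 CPM in wild type 1 to 3 and 71.2, 68.3 and 69.9 CPM in knockout 1 to 3 (log2 fold change 0.057, SE 0.058, adjusted p = 0.781). Its wild-type libraries differed by less than 1 CPM, and all knockout libraries lay above them. Kmt5b measured 175, 203 and 183 CPM in wild type 1 to 3 and 185, 189 and 196 CPM in knockout 1 to 3 (log2 fold change 0.022, SE 0.071, adjusted p = 0.947), with overlap. Kmt5c measured 49.2, 52.8 and 46.7 CPM in wild type 1 to 3 and 53.7, 54.7 and 56.7 CPM in knockout 1 to 3 (log2 fold change 0.15, SE 0.073, adjusted p = 0.508), and its knockout libraries lay above the wild-type ones, the nearest by under 1 CPM.

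Of the SET domain genes with other or unsettled substrates, Setd3, the actin histidine methyltransferase, measured 88.4, 86.8 and 86.0 CPM in wild type 1 to 3 and 87.9, 83.4 and 85.9 CPM in knockout 1 to 3 (log2 fold change −0.022, SE 0.057, adjusted p = 0.930). Setd4 was low and measured 6.95, 7.93 and 9.31 CPM in wild type 1 to 3 and 7.87, 10.9 and 9.24 CPM in knockout 1 to 3 (log2 fold change 0.21, SE 0.16, adjusted p = 0.6999), with wild type 1 the lowest and knockout 2 the highest of the 6. Without these libraries its log2 fold change was −0.011, a fall set by leaving out its lowest wild-type and highest knockout values. They are also the libraries with skeletal muscle markers, and the part of muscle in its values was not tested. Setd5 measured 256, 289 and 269 CPM in wild type 1 to 3 and 262, 305 and 291 CPM in knockout 1 to 3 (log2 fold change 0.075, SE 0.080, adjusted p = 0.794). All of these groups overlapped. Setd6, which methylates the NF-kappaB subunit RelA, had a log2 fold change of 0.041.

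The LSD demethylases remove mono- and dimethylation of H3K4 by amine oxidation. Kdm1a (ENSMUSG00000036940, chr4:136550540-136602723), which encodes LSD1, measured 93.4, 93.9 and 96.3 CPM in wild type 1 to 3 and 105, 106 and 102 CPM in knockout 1 to 3 (log2 fold change 0.14, SE 0.055, adjusted p = 0.392, 95% interval 0.017 to 0.26). The wild-type libraries lay within 3 CPM of each other and all knockout libraries lay above them, and the log2 difference was 0.16 within the first title prefix and 0.11 within the second. Kdm1b, which encodes LSD2, measured 34.8, 37.0 and 34.5 CPM in wild type 1 to 3 and 33.8, 29.4 and 38.0 CPM in knockout 1 to 3 (log2 fold change −0.069, SE 0.10, adjusted p = 0.859), with knockout 2 the lowest and knockout 3 the highest library. The JmjC enzymes of the KDM5 family remove trimethylation of H3K4. Kdm5a measured 157, 173 and 173 CPM in wild type 1 to 3 and 165, 182 and 173 CPM in knockout 1 to 3 (log2 fold change 0.047, SE 0.067, adjusted p = 0.859), with overlap. Kdm5b measured 148, 155 and 152 CPM in wild type 1 to 3 and 157, 162 and 165 CPM in knockout 1 to 3 (log2 fold change 0.086, SE 0.057, adjusted p = 0.644), without overlap, the knockout libraries being the higher.

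The JmjC demethylases of H3K9 and H3K36 make up the largest group, with 10 members, of which 9 were tested and had log2 fold changes of −0.032 to 0.14. Kdm2a, an H3K36 demethylase with a CXXC domain that binds unmethylated CpG, measured 162, 179 and 171 CPM in wild type 1 to 3 and 189, 188 and 187 CPM in knockout 1 to 3 (log2 fold change 0.14, SE 0.061, adjusted p = 0.470). Its knockout libraries lay within 2 CPM of each other and above every wild-type library. Kdm3a, an H3K9 demethylase known as a hypoxia-responsive gene, measured 156, 164 and 179.8 CPM in wild type 1 to 3 and 191, 173 and 187 CPM in knockout 1 to 3 (log2 fold change 0.14, SE 0.072, adjusted p = 0.531), with wild type 3 inside the knockout range. Kdm4a, which acts on trimethylated H3K9 and H3K36, measured 132, 138 and 131 CPM in wild type 1 to 3 and 149, 140.4 and 145 CPM in knockout 1 to 3 (log2 fold change 0.12, SE 0.057, adjusted p = 0.509), and its groups did not overlap. Kdm2b, which recruits a Polycomb complex to CpG islands, measured 24.3, 23.8 and 23.6 CPM in wild type 1 to 3 and 30.3, 24.9 and 22.0 CPM in knockout 1 to 3 (log2 fold change 0.11, and −0.031 without knockout 1). Only knockout 1 stood apart. Kdm3b, Kdm4b, Kdm4c, Kdm7a and Kdm8 had log2 fold changes of −0.0038, −0.0070, −0.013, −0.032 and 0.013. Kdm6b, the H3K27 demethylase retained here from the KDM6 family, measured 105, 119.7 and 107 CPM in wild type 1 to 3 and 99.2, 128 and 119 CPM in knockout 1 to 3 (log2 fold change 0.062, SE 0.10, adjusted p = 0.869). Its lowest library was knockout 1 and its highest knockout 2.

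The GNAT acetyltransferases Kat2a (GCN5) and Kat2b (PCAF) are alternative catalytic subunits of the SAGA and ATAC coactivators, and Kat14 belongs to ATAC. Kat2a measured 35.1, 38.2 and 31.9 CPM in wild type 1 to 3 and 39.3, 32.3 and 35.1 CPM in knockout 1 to 3 (log2 fold change 0.020, SE 0.10, adjusted p = 0.969). Kat2b measured 63.1, 63.6 and 58.6 CPM in wild type 1 to 3 and 56.0, 58.7 and 62.8 CPM in knockout 1 to 3 (log2 fold change −0.063, SE 0.072, adjusted p = 0.809), and Kat14 measured 35.6, 37.8 and 32.6 CPM in wild type 1 to 3 and 37.7, 36.4 and 37.0 CPM in knockout 1 to 3 (log2 fold change 0.067, SE 0.081, adjusted p = 0.824). Each of the 3 overlapped between genotypes. The per-length ratio of Kat2b to Kat2a was 1.28, 1.19 and 1.31 in wild type and 1.02, 1.30 and 1.28 in knockout, lowest in knockout 1.

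The MYST acetyltransferases had log2 fold changes of −0.0029 to 0.081 over 5 genes, the narrowest range among the role groups with at least 3 tested members. Kat5 (Tip60), which acts in DNA repair and transcription, measured 49.9, 49.2 and 44.8 CPM in wild type 1 to 3 and 58.5, 44.0 and 45.9 CPM in knockout 1 to 3 (log2 fold change 0.045, SE 0.11, adjusted p = 0.927), with knockout 1 high and the other knockout libraries near or below the lower end of the wild-type range. Kat6a (MOZ), known for its role in haematopoietic stem cells, measured 188, 213 and 196 CPM in wild type 1 to 3 and 196, 199 and 201 CPM in knockout 1 to 3 (log2 fold change −0.0029, SE 0.066, adjusted p = 0.995). Kat8 (MOF), the H4K16 acetyltransferase, measured 18.4, 18.6 and 16.2 CPM in wild type 1 to 3 and 18.1, 18.9 and 19.4 CPM in knockout 1 to 3 (log2 fold change 0.081, SE 0.092, adjusted p = 0.808). The groups overlapped for each of them. Kat6b (MORF) and Kat7 (HBO1) had log2 fold changes of −0.00011 and 0.000048. Kat6a exceeded its paralogue Kat6b per length in every library, with ratios of 4.78, 5.23 and 4.73 in wild type and 5.28, 4.83 and 4.64 in knockout.

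Taking the members by the separation of their groups, 9 had every knockout library above every wild-type library and 0 had the reverse, beside 8.6% and 8.45% of all genes. The 9 were Setd1a, Nsd2, Ehmt1, Kmt5a, Kmt5c, Kdm1a, Kdm5b, Kdm2a and Kdm4a. The counts were 10 and 0 with library size only, where 11.75% of all genes lay above and 6.48% below, and 8 and 0 with size factors of the DESeq2 kind, where the shares were 7.96% and 8.66%. The separations were small, with log2 fold changes of 0.057 (Kmt5a) to 0.20 (Nsd2). Within the title prefixes, the median member differed by 0.049 log2 units in the first and 0.064 in the second, beside 0.011 and 0.0040 over all genes. The difference had one sign in both prefixes for 22 of the 45 members (19 higher, 3 lower), beside 57.9% of all genes. The 5 endothelial markers summed to 1679 to 2004 CPM in wild type and to 1598 to 1675 CPM in knockout. These sums did not overlap, but the nearest libraries stood at 1679 and 1675 CPM. Of the endothelial estimates, 4 of 5 lay below 0 (median log2 fold change −0.22, 0 called). The 7 immune markers summed to 137 to 176 CPM in wild type and to 133 to 159 CPM in knockout (5 of 7 estimates below 0, median −0.25, 0 called). Other lists went either way. Among the mesenchymal markers 5 of 6 estimates lay below 0 (median −0.043), and among the cycling markers 16 of 16 lay above 0 (median 0.33). The part of cell composition in the separation of the 9 members was not tested.

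**Figure D4:**
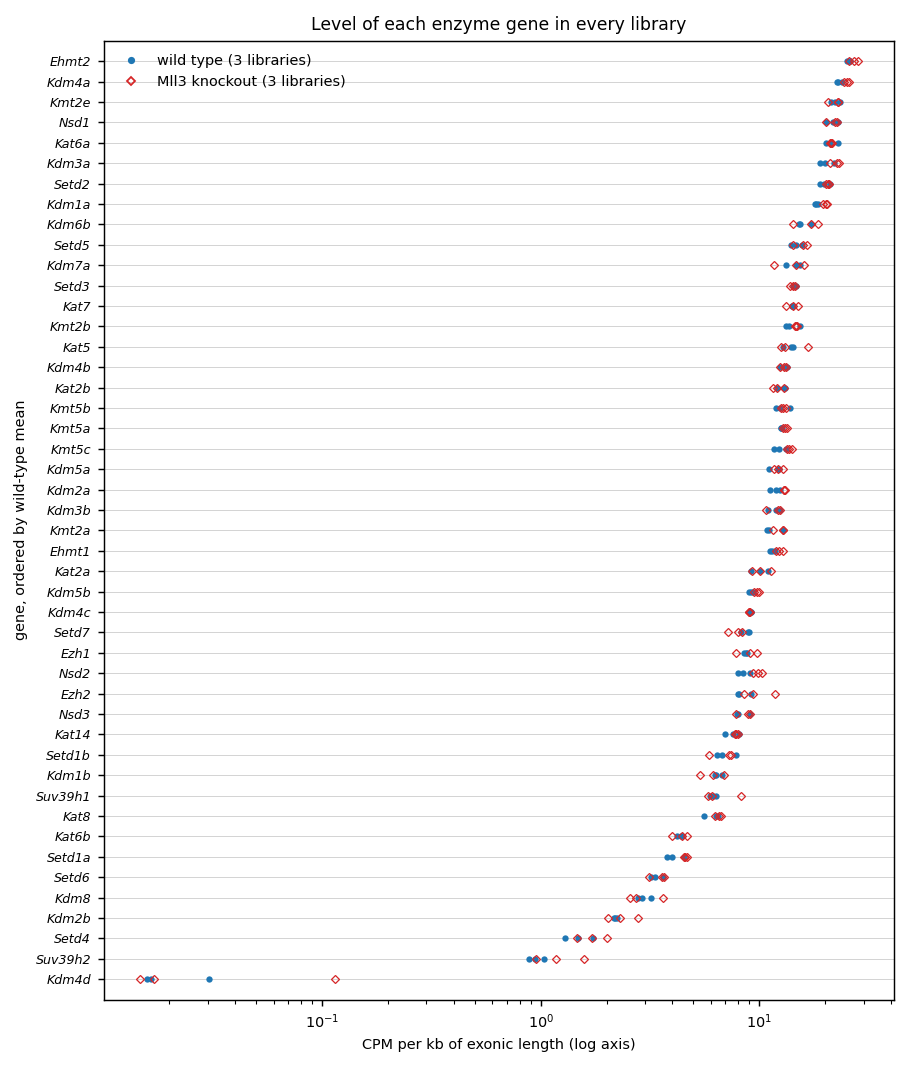
CPM per kb of exonic length (x axis, log scale) of the 46 genes (y axis, ordered by the wild-type mean) in each wild-type (filled circles) and knockout (open diamonds) library. The genes spread from 25.8 (Ehmt2) to 0.021 (Kdm4d) in wild-type means, and the diamonds lie among or beside the circles of the same gene, apart from 1 diamond of Kdm4d, which rests on 7 reads.

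Levels per length declined gradually over most members and ended in a low tail. In wild type, Ehmt2 was highest at 25.8 ± 0.44 CPM per kb (SD, n = 3, as below), followed by Kdm4a at 23.1 ± 0.67 CPM per kb and Kmt2e at 22.2 ± 1.1 CPM per kb. The median member stood at 11.7 CPM per kb. At the low end stood Setd4 at 1.499 ± 0.22 CPM per kb, Suv39h2 at 0.952 ± 0.079 CPM per kb and Kdm4d at 0.0209 ± 0.0083 CPM per kb. Of the 45 pairs of neighbours in this order, 35 had overlapping wild-type ranges and so did not differ beyond their spread, among them Kdm4a and Kmt2e. Ehmt2 lay clear of Kdm4a. The 45 tested members had at least 1 CPM in every library. Of the paralogues compared here, those with the highest ratio of levels per length were Suv39h1 (6.15 ± 0.19 CPM per kb) over Suv39h2 and Kat6a (21.3 ± 1.4 CPM per kb) over Kat6b (4.34 ± 0.12 CPM per kb).

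The members also varied together between libraries of one genotype. Wild type 2 was the highest wild-type library for 33 of the 45 members, under each of the 3 scalings tried, beside 34.2% of all genes with TMM scaling. Wild type 1 was the lowest of the 6 libraries for 17 members, beside 16.5% of all genes. The 17 members with at least 10 kb of exonic length had median deviations from the gene's mean log2 CPM of −0.10, 0.074 and −0.030 in wild type 1 to 3 and −0.087, 0.071 and 0.057 in knockout 1 to 3. The 1458 tested genes of that length had medians of −0.040, 0.034 and −0.017 in wild type and −0.070, 0.057 and 0.030 in knockout, with the same sign in each library. The 28 shorter members had medians of −0.054, 0.012 and −0.062 in wild type and 0.059, −0.0013 and 0.034 in knockout. They were thus also low in wild type 1, and in knockout 1 their sign was opposite to that of the long members. The 17584 shorter genes had medians of 0.0041 in wild type 1 and 0.014 in knockout 1. The part of transcript length in the member values was not tested.

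Other genes of the same machinery came from 8 lists with 93 tested genes. With edgeR, 0 of the 93 were called in either direction, beside 0.368% of all genes. At an unadjusted p under 0.05 stood 10 of the 93, beside 10.7% of all genes. DESeq2 called 0 of them, beside 1.87% of all genes. With the title prefix as a term, 3 were called, beside 3.28% of all genes. These were Hr, a JmjC corepressor, and the deacetylases Hdac6, known for acting on tubulin, and Hdac9, a class IIa enzyme. Hr measured 10.4, 10.5 and 6.58 CPM in wild type 1 to 3 and 17.96, 10.96 and 11.7 CPM in knockout 1 to 3 (log2 fold change 0.78, adjusted p = 0.00717 with the prefix term, against 0.57 and 0.452 without it). Hdac6 measured 26.6, 30.4 and 24.7 CPM in wild type 1 to 3 and 37.0, 32.5 and 31.7 CPM in knockout 1 to 3, and its adjusted p was 0.0391 with the prefix term and 0.285 without. Hdac9 measured 19.2, 21.8 and 22.8 CPM in wild type 1 to 3 and 13.7, 18.001 and 18.48 CPM in knockout 1 to 3 and had an adjusted p of 0.0377 with the term and 0.338 without. The groups did not overlap for these 3 genes, with Hr and Hdac6 higher and Hdac9 lower in knockout. They are the genes that the fit with the prefix term called, and 17.0% of all genes also had groups without overlap.

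The rest of the lists is given by the gene of lowest p. Of 14 other lysine methyltransferases, none was called, and Mecom, a PRDM-family zinc finger factor, measured 128, 134 and 159 in wild type and 164, 159 and 168 CPM in knockout (log2 fold change 0.22, SE 0.082, adjusted p = 0.358). Of the 26 partners in acetyltransferase complexes, none was called, and Yeats2, a histone acyl-lysine reader in the ATAC complex, measured 103, 112 and 101 in wild type and 125, 119 and 121 CPM in knockout (log2 fold change 0.20, SE 0.062, adjusted p = 0.243), without overlap. Its adjusted p was the lowest of the 93 genes in that fit. Sirt4, a mitochondrial member of the 7 sirtuins, measured 13.0, 13.5 and 13.6 in wild type and 15.03, 16.1 and 15.8 CPM in knockout (log2 fold change 0.22, SE 0.094, adjusted p = 0.423). Among 9 shared subunits of the COMPASS complexes, in which the MLL and SETD1 enzymes work, Cxxc1 measured 85.4, 88.1 and 79.2 in wild type and 99.8, 87.7 and 92.9 CPM in knockout (log2 fold change 0.15, SE 0.070, adjusted p = 0.489). Among 9 partners of Ezh1 and Ezh2 in Polycomb repressive complex 2, Phf1 measured 29.3, 31.4 and 30.2 in wild type and 35.7, 31.0 and 34.2 CPM in knockout (log2 fold change 0.15, SE 0.083, adjusted p = 0.567). Among 9 other acetyltransferases, a list that includes Crebbp and Ep300, Taf1 measured 97.1, 105 and 98.8 in wild type and 107, 102 and 105 CPM in knockout (log2 fold change 0.062, SE 0.058, adjusted p = 0.760). The median log2 fold changes of the 8 lists ran from 0.0039 (sirtuins) to 0.095 (other lysine methyltransferases), beside 0.010 over all genes tested.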

How the data were processed

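Per the labels' protocols, polyadenylated RNA of the 6 lung samples was made into strand-specific libraries. Per the submitters' processing notes, bcl2fastq 2.19.1, GSNAP, featureCounts 1.6.3 and DESeq2 1.24.0 were used, with mm10. The deposited raw count table, per the file headers, was counted strand-aware (setting 2) at a mapping quality of at least 1, so reads shared between near-identical copies are mostly lost. The other deposited table gives normalized signal, the counts divided by 1 size factor per library. At least 99.996% of its values in each library gave back the raw counts within 0.1 read. It supplied the symbols and biotypes, and its genes were joined to the counts by Ensembl identifier. Columns of other units (exonic length) were taken from the deposited count table.

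filterByExpr kept 19042 genes with at least 99.8% of the reads. edgeR 4.0.16 (R 4.3.3) was fitted to raw counts with TMM factors, a robust quasi-likelihood and a single term for genotype, and p-values were adjusted over all genes by Benjamini-Hochberg (threshold 0.05). The SE is the absolute log2 fold change over the square root of F. Within-prefix differences used log2(CPM + 0.1). Alternatives were DESeq2 1.42.0, limma 3.58.1 (voom, or log2 of the normalized signal plus 1), other scalings and filters, the title prefix, and leaving out libraries.

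Members, role groups, gene lists and marker lists were chosen with earlier results of these data known. Named with values were, in each role group, the 3 members of lowest p, with Kmt2a, Kmt2b, Kmt2e, Ezh1, Ezh2 and the 3 highest and lowest per length. In the wider lists, the gene of lowest p was named. Suv39h1, Kdm2b, Kdm7a, Kdm8 and Hdac9 were named after their values were seen, as were the 4 promoters. Promoter sequences are RefSeq's (GRCm38.p6).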

Additional observations from a re-analysis of the deposited data

How the results depend on the processing

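Members called in either direction numbered 0 under all 15 alternatives, with a lowest adjusted p of 0.105 (Ezh2, title prefix as a term) to 0.785 (without wild type 1). Members at an unadjusted p under 0.05 numbered 0 to 7. The 7 came with library size only, where 2246 of 19042 genes stood under it. The 0 came without wild type 1, where 1357 of 19425 genes did. The count over all genes (12 higher, 58 lower) was 103 and 340 with no filter, 62 and 295 with DESeq2, 142 and 483 with a prefix term, and 1 and 8 with both libraries that hold skeletal muscle transcripts left out (an alternative chosen after seeing the data). Leaving out 1 library gave 0 to 5 higher and 0 to 36 lower. The member median (0.047) was 0.080 with library size only and 0.063 with the prefix term, and 0.023 (without wild type 1) to 0.079 (without wild type 2) with 1 library left out. The causes were not tested.

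Many estimates near 0 changed sign, none of them called. Over all 45 tested members, 8 did so with library size only, 3 with the prefix term, 1 to 3 under each of the other scalings, filters and tools, 10 with both muscle-marker libraries left out, and 20 in at least 1 of the 6 fits with 1 library left out (13 without knockout 1). The values that follow are those of members named by the rule only. With library size only, Kmt2e was at 0.028, Setd3 at 0.011 and Kat6a at 0.031, and with the prefix term Ezh1 was at −0.012. With both muscle-marker libraries left out, Nsd3 was at −0.015, Kmt5b at −0.019, Setd3 at 0.0083, Setd4 at −0.011, Setd5 at −0.014, Kdm1b at 0.0065, Kdm5a at −0.034 and Kdm6b at −0.054. With 1 library left out, the 9 of these 20 members that the rule names ranged as follows, Kmt2e (−0.041 to 0.038), Ezh1 (−0.040 to 0.12), Kmt5b (−0.027 to 0.079), Kdm1b (−0.17 to 0.019), Kdm5a (−0.0015 to 0.078), Kdm6b (−0.019 to 0.16), Kat2a (−0.062 to 0.084), Kat5 (−0.10 to 0.12) and Kat6a (−0.046 to 0.043). No paired analysis was possible because the replicate numbers only follow sample order. The title prefix, which holds both genotypes, was fitted as a term instead. Depth left Kdm4d, with 13 reads in all, untested.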
